A study of Mus musculus with 6 samples.

Results

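The genes described here are 9 genes best known from the osteoclast: Dcstamp, Ocstamp, Atp6v0d2, Acp5, Ctsk, Oscar, Nfatc1, Mitf and Itgb3. They were taken by symbol from a table of 25755 genes, in which 8 of the 9 have an entry; Oscar was not analysed here. The 9 were chosen by role with the measured values of crushed against sham-operated nerves known, Dcstamp having been selected on its difference between them, so that contrast is given for them as a description, and nothing is supported with it.

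RNA was sequenced in bulk from whole optic nerves of 6 mice, 3 after a sham operation (sham, mice 1 to 3) and 3 after optic nerve crush (ON-CR, mice 4 to 6). All 6 carried the genotype NF1flox/flox;hGFAP-Cre. A Cre recombinase under the human GFAP promoter removes Nf1 from neuroglial progenitors and their descendants, so both groups lacked Nf1 in glia while their macrophages arose outside that lineage. The nerves were operated on both sides at 6 weeks of age and taken at 12 weeks, which the sample labels give as 3 months, after perfusion of the mouse.

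Osteoclasts are giant cells that arise when macrophage precursors fuse under the cytokines M-CSF and RANKL. The receptor signals, together with co-receptors such as OSCAR and TREM2 that act through the adaptors DAP12 and FcRgamma, switch on the transcription factor NFATc1, which with MITF drives the genes for fusion and for bone resorption. DC-STAMP and OC-STAMP are membrane proteins needed for fusion, the V-ATPase subunit d2 takes part in fusion and acid secretion, TRAP and cathepsin K are enzymes of resorption, and integrin alphaVbeta3 anchors the cell to matrix. The nervous system holds no osteoclasts, but single genes of this set are also expressed by microglia, lipid-laden macrophages, dendritic cells, fibroblasts, pigment cells and platelets.

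Values are the normalized counts of the deposited table, given for the mice of a group in the order of their numbers, in which 1 read was worth 0.885 to 1.06 depending on the library, and depth came to 17414035 to 23620997 estimated reads per library. A floor of 3 reads corresponds to a normalized value of 2.66 to 3.18; floors and counting intervals cover counting error only. Of the 25755 genes, 540 differed between the groups at an adjusted p at or under 0.05 by limma, 250 higher and 290 lower after ON-CR. Scaled to equal totals instead, 421 were higher and 195 lower, and the median log2 fold change of all genes moved from 0.03 to 0.15. The groups also differed in sex-linked RNA. Xist was at 2.14 to 30.9 in sham and 2708 to 6357 in ON-CR libraries, and the Y-linked Ddx3y at 1291 to 1645 in sham and at 976, 4.19 and 0 in ON-CR mice 4, 5 and 6, so sex and surgery cannot be told apart. The library labelled ON-CR mouse 4 held RNA of both genes (Xist 2708, Ddx3y 976), which a single mouse of either sex would not, and its source was not tested. The label of the tissue was met by its markers: the sum over 10 oligodendrocyte genes was 1293645 to 1848598 in sham and 631362 to 748270 in ON-CR libraries. Nf1 itself lay between 343 and 447 in all 6 libraries. Each library is labelled as 1 mouse and was counted as 1, that of mouse 4 included, and p-values measure the spread between these 6 libraries. For its quantitative PCR of optic nerve RNA the paper used more than 1 mouse per sample, and for sequencing it does not say whether mice were pooled.

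Promoters from RefSeq were found for Acp5, Ctsk, Mitf and Oscar, 4 of the 9 genes, with 8 start sites among them. For the resorption enzymes, whose values are described below, the 250 bases upstream of a start site are shown (GRCm38.p6, 5′ to 3′ on the strand of the gene). Capitals mark matches on either strand to GGAAA, the core bound by NFAT proteins, or to CATGTG, a form of the E-box bound by the MITF family. Ctsk lies at chr3:95498960-95499209 on the plus strand, and the Acp5 start is the most downstream of its 3, at chr9:22130599-22130848 on the minus strand.
Ctsk: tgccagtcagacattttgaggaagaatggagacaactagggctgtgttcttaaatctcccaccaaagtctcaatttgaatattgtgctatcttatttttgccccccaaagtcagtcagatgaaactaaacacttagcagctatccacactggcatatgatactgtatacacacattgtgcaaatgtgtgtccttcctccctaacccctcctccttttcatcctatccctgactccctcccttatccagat
Acp5: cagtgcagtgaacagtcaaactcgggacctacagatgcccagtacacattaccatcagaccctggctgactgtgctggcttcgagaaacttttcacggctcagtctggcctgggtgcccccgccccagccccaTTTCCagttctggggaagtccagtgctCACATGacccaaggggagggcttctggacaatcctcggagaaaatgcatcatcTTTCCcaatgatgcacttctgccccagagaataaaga

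The Acp5 window held 2 matches to GGAAA, both on the opposite strand as TTTCC, and 1 to CATGTG, read there as CACATG. It is shown because it held the most matches of the 3 Acp5 windows: each of the other 2 held 1 match to GGAAA and 0 to CATGTG. The Ctsk window held none of the 4 motifs searched, which were these and CACGTG and the AP-1 site TGANTCA. Among all 32851 promoters of the same length, 55.6% held GGAAA, 12.3% CATGTG, 6.02% CACGTG and 6.75% TGANTCA, on either strand, so a match to GGAAA is met in most promoters. A match is a string of letters and was not tested for binding.

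Among the fusion genes, Dcstamp had reads in every ON-CR and in no sham library. Dcstamp (chr15:39745930-39760938, plus strand) encodes the dendritic cell-specific transmembrane protein, without which osteoclast precursors stay mononuclear. It was at 0 in the sham nerves (mice 1 to 3) and at 34.9, 11.5 and 145 in the ON-CR nerves (mice 4 to 6). Every ON-CR library lay above every sham library, with mouse 6 far above the other 2 ON-CR mice.

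In reads, Dcstamp had 0 in the 3 sham libraries and 35, 11 and 140 in the ON-CR nerves (mice 4 to 6). Set against the floor of 3 reads per sham library, a mean normalized value of 2.89, the ON-CR mean of 63.9 ± 71.5 (SD, n = 3) was at least 22.2-fold higher. The bound was at least 12.1-fold in mouse 4, 4.00-fold in mouse 5 and 50.4-fold in mouse 6. Mouse 6 held 75.3% of the ON-CR reads of Dcstamp, 12.6 times the normalized value of mouse 5, and without it the bound from the mean of the other 2 mice was 8.04-fold. The size of the difference therefore rests largely on 1 animal and its direction on all 3. The fitted log2 fold change of 5.34 depends on the pseudocount of 1 and is no bound.

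Genes with reads of this kind were counted across the table as a description. A total of 57 genes had a value of exactly 0 in all 3 sham libraries, and 19 of them had at least 1 read in each ON-CR library. Dcstamp was the only 1 of the 57 with at least 10 reads in each ON-CR library and had the highest ON-CR mean among them. Allowing up to 1 sham read in all, with estimated reads rounded to whole numbers, gave 180 genes. Of these, 4 had at least 10 reads in each ON-CR library: Dcstamp, Atp6v0d2, Gm37676 and Olfr110. By ON-CR mean, Dcstamp was at rank 3 and Atp6v0d2 at rank 6 of the 180. The minimum of 10 reads lies just under the 11 reads of Dcstamp in mouse 5, so these counts depend on the cutoffs. In the other direction no gene had 0 reads in every ON-CR library and at least 10 in each sham library, a count of 0 genes. This search was made after the values of Dcstamp had been seen, on the contrast by which Dcstamp was selected, so nothing is supported with it. Genes without an entry, such as Oscar, could not be counted in either direction.

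Ocstamp (chr2:165393760-165400405, minus strand) encodes the osteoclast stimulatory transmembrane protein, the related partner of DC-STAMP in fusion. It stood at 4.24, 10.6 and 0 in the sham nerves (mice 1 to 3) and 0, 9.44 and 4.15 in the ON-CR nerves (mice 4 to 6). It did not follow Dcstamp: ON-CR mouse 4, with 35 reads of Dcstamp, had 0 of Ocstamp, and the groups overlapped. Over all libraries of a group there were 16 sham and 13 ON-CR reads, a ratio of depth-corrected levels of 0.873. Its 95% exact counting interval of 0.386 to 1.94 leaves out the spread between mice. By limma the log2 fold change was -0.06 with a 95% interval of -2.49 to 2.37, so a change within that wider range was not resolved. The distant family member Dcst1 was at 17.2 ± 3.38 (SD, n = 3) in sham and 16.4 ± 1.50 (SD, n = 3) in ON-CR libraries, a log2 difference of -0.05 with a 95% interval of -0.93 to 0.84 by limma. Dcst2 was not analysed here.

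Atp6v0d2 (chr4:19876841-19922605, minus strand) encodes the d2 subunit of the V-ATPase, the proton pump of osteoclasts, and macrophages also express it. It was at 0, 0 and 0.939 in the sham nerves (mice 1 to 3), which is a single read in mouse 3. In the ON-CR nerves (mice 4 to 6) it was at 32.9, 24.1 and 19.7, that is 33, 23 and 19 reads. All 3 ON-CR libraries were above all sham libraries, and they lay closer together than for Dcstamp, with a coefficient of variation of 26.2% against 112%. The order of the mice also differed: Atp6v0d2 was highest in mouse 4 and lowest in mouse 6, where Dcstamp was highest. Over the groups there were 1 sham and 75 ON-CR reads, a depth-corrected ratio of 80.6 with a 95% exact counting interval of 14.0 to 3224. The fitted log2 fold change of 4.38 lay between 4.19 and 4.70 with any 1 mouse left out, so its size did not rest on a single animal. The call of Atp6v0d2 at an adjusted p at or under 0.05 was lost without ON-CR mouse 6, when 0 of the 8 measured genes passed. The fold change was 3.57 with a pseudocount of 2 and 5.17 with one of 0.5.

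The ubiquitous subunit d1, which occupies the same place in the pump, did not show this pattern. Atp6v0d1 was at 1952 ± 202 (SD, n = 3) in sham and 1896 ± 130 (SD, n = 3) in ON-CR libraries, a log2 difference of -0.04 with a 95% interval of -0.30 to 0.22. Per base of exon, the Atp6v0d2 level was 0, 0 and 0.0359% of the Atp6v0d1 level in the sham nerves (mice 1 to 3) and 1.22, 0.781 and 0.698% in the ON-CR nerves (mice 4 to 6). Even after ON-CR, d2 therefore remained a minor share of the d subunit RNA of the nerve.

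**Figure D1:**
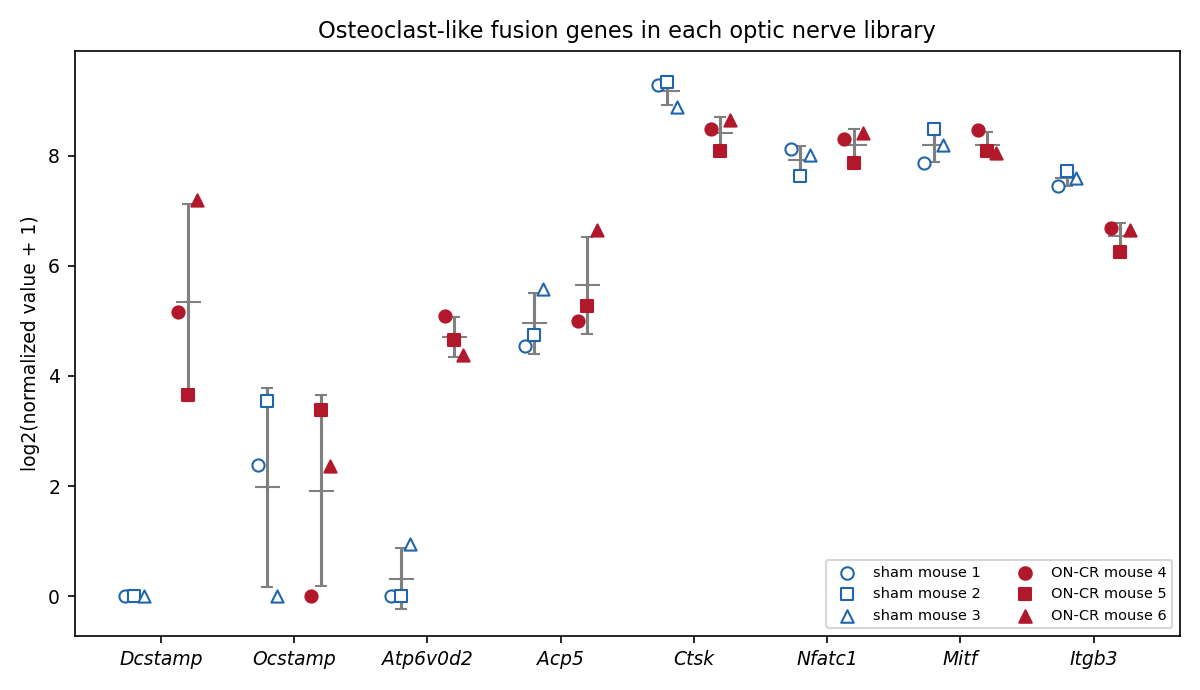
Level of each osteoclast-like fusion gene in each optic nerve library, as log2(normalized value + 1), with open blue symbols for the 3 sham and filled red symbols for the 3 ON-CR mice; the horizontal line is the mean and the bar 1 SD on this scale. Dcstamp and Atp6v0d2 lie at or near 0 in sham and above 3 in every ON-CR library, Ctsk and Itgb3 are lower in every ON-CR library, and Ocstamp, Acp5, Nfatc1 and Mitf overlap.

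The resorption enzymes behaved differently from each other. Acp5 (chr9:22126727-22135711, minus strand) encodes tartrate-resistant acid phosphatase, the histochemical stain of the osteoclast, which activated macrophages also make. It was at 22.3, 25.7 and 47.0 in the sham nerves (mice 1 to 3) and at 30.9, 37.7 and 99.7 in the ON-CR nerves (mice 4 to 6). The highest value was again that of mouse 6, but sham mouse 3 exceeded ON-CR mice 4 and 5, so the groups overlapped. The log2 fold change was 0.69 with a 95% interval of -0.37 to 1.74, and it was 0.18 at its lowest when a mouse was left out. Acp5 shares 137 exon bases with 6530413G14Rik on the opposite strand, and the counting is not stated to use strand.

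Ctsk (chr3:95499256-95509362, plus strand) encodes cathepsin K, the collagen-cleaving protease of osteoclasts that fibroblasts also make, and it was the most abundant gene of the set. It was at 624, 645 and 469 in the sham nerves (mice 1 to 3) and at 357, 268 and 402 in the ON-CR nerves (mice 4 to 6). All 3 ON-CR values were below all sham values, the ON-CR mean being 59.1% of the sham mean. The log2 fold change was -0.76 with a 95% interval of -1.18 to -0.34, and from -0.91 to -0.60 with each mouse left out. After adjustment over all genes Ctsk did not pass the test by limma. Ctsk thus lay lower in the nerves where Dcstamp and Atp6v0d2 lay higher.

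The related cathepsins L and S, lysosomal proteases that are abundant in microglia, had higher means after ON-CR, where that of Ctsk was lower. Ctsl was at 3341 ± 266 (SD, n = 3) in sham and 4550 ± 597 (SD, n = 3) in ON-CR libraries and Ctss at 5213 ± 1183 (SD, n = 3) and 7893 ± 3865 (SD, n = 3). Like Ctsk, neither passed the test (adjusted p = 0.114 and 0.437 by limma). Per base of exon, the Ctsk level was 74.6 ± 13.4% (SD, n = 3) of the Ctsl level in sham and 32.1 ± 2.32% (SD, n = 3) in ON-CR nerves. Against Ctss it was 10.1 ± 1.72% in sham and 4.26 ± 1.14% in ON-CR nerves (SD, n = 3 each). The percentage of Ctsl depends on its length of 6489 annotated exon bases, merged over transcripts and partly shared with other genes. Before division by length, Ctsk was at 579 ± 96.5 (SD, n = 3) in sham libraries, well below Ctsl.

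A list of 10 fibroblast genes, added after the values of Ctsk had been seen, summed to 37636 to 43857 in sham and 24890 to 38216 in ON-CR libraries. All 10 had a fold change below 0 and 0 of the 10 passed the test; none of the 10 was at 0 in every sham library. Bone and cartilage markers, of which 10 of 12 have an entry, summed to 1522 to 1609 in sham and 1077 to 1246 in ON-CR libraries, with 0 of 10 passing the test and Alpl, alkaline phosphatase, the highest of them. The osteocyte markers Sost and Mepe were not analysed here. The part of either cell type in the values of Ctsk was not tested. In bulk RNA, fewer cells of a type and less RNA per cell cannot be told apart.

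The transcription factors of the set were present in every nerve and overlapped between the groups. Nfatc1, on chromosome 18, encodes the master regulator of osteoclast differentiation, a target of calcineurin. It was at 276, 196 and 255 in the sham nerves (mice 1 to 3) and at 313, 231 and 341 in the ON-CR nerves (mice 4 to 6). Mouse 6 was highest and sham mouse 2 lowest, with a log2 fold change of 0.28 and a 95% interval of -0.17 to 0.72. Its paralogs Nfatc2, Nfatc3, Nfatc4 and Nfat5 did not pass the test either. Per base of exon, the Nfatc1 level was 161 ± 46.9% (SD, n = 3) of that of Nfatc3 in sham and 159 ± 22.0% (SD, n = 3) in ON-CR nerves.

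Mitf (chr6:97807052-98021349, plus strand) encodes a basic helix-loop-helix factor of osteoclasts and pigment cells. It was at 233, 356 and 292 in the sham nerves (mice 1 to 3) and at 352, 268 and 265 in the ON-CR nerves (mice 4 to 6). Sham mouse 2 and ON-CR mouse 4 were the highest, and the means of 294 ± 61.2 and 295 ± 49.3 (SD, n = 3 each) were nearly the same. The log2 difference of 0.01 had a 95% interval of -0.42 to 0.45, so shifts within that range were not resolved.

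Of the other factors of the MITF family, Tfeb, a regulator of lysosomal genes, was lower after ON-CR, at 676 ± 123 (SD, n = 3) in sham and 345 ± 73.6 (SD, n = 3) in ON-CR libraries (log2 fold change -0.97, adjusted p = 0.0336 by limma). The adjusted p of Tfeb was 0.142, 0.192 and 0.183 without sham mouse 1, sham mouse 2 or ON-CR mouse 6. Tfe3 was at 482 ± 66.4 and 536 ± 30.8 (SD, n = 3 each) and did not pass, and Tfec was not analysed here. The Mitf level per base of exon was 40.6 ± 10.6% (SD, n = 3) of that of Tfeb in sham and 79.1 ± 10.4% (SD, n = 3) in ON-CR nerves. Markers of melanocytes and retinal pigment epithelium, of which 6 of 10 have an entry, summed to 897 to 952 in sham and 602 to 872 in ON-CR libraries, with 0 of 6 passing the test and Rlbp1 the highest. Among them Mlana was at 0 in all 3 sham libraries, and Tyr, Tyrp1, Oca2 and Rpe65 were not analysed here. The part of these cells in the values of Mitf was not tested.

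Itgb3 (chr11:104608000-104670476, plus strand) encodes integrin beta3, the subunit that pairs with alphaV on osteoclasts and with alphaIIb on platelets. It was at 174, 209 and 192 in the sham nerves (mice 1 to 3) and at 102, 75.5 and 99.7 in the ON-CR nerves (mice 4 to 6). All ON-CR values were below all sham values, and the mice of each group lay close together, with a coefficient of variation of 9.12% in sham and 15.8% in ON-CR nerves. The ON-CR mean was 48.2% of the sham mean, a log2 fold change of -1.05 with a 95% interval of -1.50 to -0.60, and of -1.13 to -0.92 with each mouse left out.

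The partner alphaV and the other beta subunits did not move with Itgb3. Itgav was at 1158 ± 41.0 (SD, n = 3) in sham and 1334 ± 135 (SD, n = 3) in ON-CR libraries and did not pass (adjusted p = 0.456 by limma), nor did Itgb1 or Itgb5. Itgb2, the beta subunit of leukocyte integrins, was higher after ON-CR, from 473 ± 91.1 to 1110 ± 335 (SD, n = 3 each; log2 fold change 1.20, adjusted p = 0.0256 by limma), but with a mouse left out it passed only without ON-CR mouse 5, the adjusted p being 0.0528 to 0.161 without any other mouse. Per base of exon, the Itgb3 level was 6.03 ± 0.861% (SD, n = 3) of the Itgb1 level in sham and 3.07 ± 0.198% (SD, n = 3) in ON-CR nerves. Markers of megakaryocytes and platelets summed to 404 to 508 in sham and 273 to 422 in ON-CR libraries; 7 of 8 had a fold change below 0, 0 of 8 passed the test, and Pf4 was the highest. Itga2b, the alphaIIb partner of beta3, was the 1 with a fold change above 0 and is named after its values were seen, at 72.4 ± 15.2 in sham and 87.7 ± 19.8 in ON-CR libraries (SD, n = 3 each). The part of platelets in the values of Itgb3 was not tested.

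**Figure D2:**
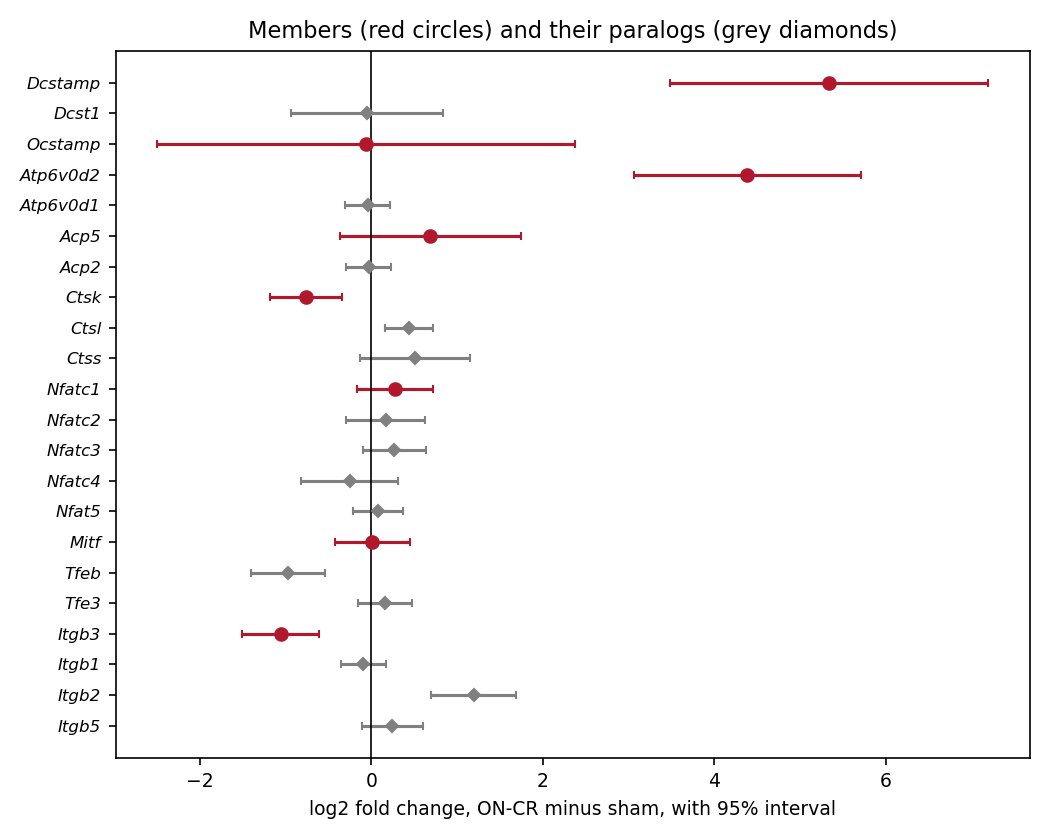
Log2 fold change of ON-CR over sham, on the log2(normalized value + 1) scale, for each osteoclast-like gene (red circles) above its paralogs (grey diamonds), with 95% intervals from limma as bars and a line at 0. Dcstamp (5.34) and Atp6v0d2 (4.38) lie far to the right of Dcst1 (-0.05) and Atp6v0d1 (-0.04), and Ctsk (-0.76) and Itgb3 (-1.05) lie to the left of Ctsl and Ctss and of Itgb1, Itgb2 and Itgb5.

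Taken as a set, the 8 measured genes did not move one way. Dcstamp and Atp6v0d2 were higher after ON-CR with an adjusted p at or under 0.05 by limma and Itgb3 lower, 3 of 8 genes, against 2.10% of all genes in either direction, 0.971% higher and 1.13% lower. Sham and ON-CR ranges were apart for 4 of the 8, Dcstamp and Atp6v0d2 higher and Ctsk and Itgb3 lower, against 21.6% of all genes. Since the set was chosen with this contrast known, nothing is read from these counts. The median log2 fold change of the 8 was 0.15, against 0.03 for all genes, and it is the same with Dcstamp at its bound. Without ON-CR mouse 6, 0 of the 8 passed the threshold, without ON-CR mouse 4, 3, and 1 of the 8 passed when any single sham mouse was left out. The directions of Dcstamp, Atp6v0d2, Acp5, Nfatc1, Ctsk and Itgb3 were the same under every scaling, pseudocount and left-out mouse tried, while those of Ocstamp and Mitf were not.

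The order of levels was compared per kilobase of exon, as normalized value per kilobase. In sham nerves Ctsk stood far above the rest at 383 ± 63.8, followed by Mitf at 47.4 ± 9.89, Itgb3 at 32.5 ± 2.96 and Nfatc1 at 32.4 ± 5.58 (SD, n = 3 each). Acp5 at 15.6 ± 6.59 came next, and Ocstamp, Atp6v0d2 and Dcstamp were at 1.36 ± 1.46, 0.115 ± 0.200 and 0. Itgb3 and Nfatc1 did not differ beyond their spread, nor did the 3 lowest genes. In ON-CR nerves Ctsk was again the highest at 226 ± 44.9, with Mitf at 47.6 ± 7.96 and Nfatc1 at 39.5 ± 7.66. Acp5 followed at 27.6 ± 18.7, Dcstamp at 24.0 ± 26.8, Itgb3 at 15.6 ± 2.47, Atp6v0d2 at 9.42 ± 2.47 and Ocstamp at 1.24 ± 1.29. The spread of Dcstamp was larger than its mean and covered the means of Mitf, Nfatc1, Acp5, Itgb3, Atp6v0d2 and Ocstamp, so its place in this order is not fixed. Per kilobase, Dcstamp was at 13.1, 4.33 and 54.6 in ON-CR mice 4, 5 and 6 and Atp6v0d2 at 12.1, 8.88 and 7.26. Without mouse 6 the ON-CR mean of Dcstamp was 8.71 per kilobase, below that of Atp6v0d2 at 10.5 and of Acp5 at 16.9.

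Macrophages were abundant in both groups. Markers of homeostatic microglia summed to 16599 to 23343 in sham and 19922 to 28947 in ON-CR libraries, and 1 of 12, Aif1, which encodes the Iba1 protein, passed the test (log2 fold change 1.22, adjusted p = 0.0260 by limma). Markers of border and infiltrating macrophages summed to 1936 to 2308 in sham and 1546 to 2967 in ON-CR libraries, with 0 of 12 passing and F13a1 the highest. Microglial and macrophage RNA was therefore present in the sham libraries, in which Dcstamp had no read. Dendritic cells also express Dcstamp. Markers of these cells summed to 791 to 1413 in sham and 1215, 1100 and 2579 in the ON-CR nerves (mice 4 to 6). Of the 12, Cd24a, the highest, passed (log2 fold change 0.76, adjusted p = 0.0237 by limma), 11 did not, and none was at 0 in every sham library. Sham and ON-CR ranges were apart for 1 of the 12, against 21.6% of all genes. Mouse 6 also held the most B and plasma cell RNA, with 10 genes summing to 99382 in that library against 1394 and 3033 in the other 2 ON-CR and 2828 to 4338 in the sham libraries, Igkc being the highest. The part of dendritic or plasma cells in the Dcstamp value of mouse 6 was not tested.

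The other genes of the pathway were taken from 5 lists of 113 genes besides the 9, of which 107 have an entry. By limma, 20 of the 107 differed at an adjusted p at or under 0.05, 17 higher and 3 lower after ON-CR, which is 18.7% against 2.10% of all genes. Of the 17 higher, 9 came from the 15 measured lipid-laden and giant cell macrophage genes. None came from the 30 measured genes of acid secretion and matrix resorption, so the rise was not spread evenly over the lists. The median log2 fold change of the 107 was 0.18, and the groups did not overlap for 45, or 42.1%, against 21.6% of all genes. The lists were written with earlier results of these libraries known, and the counts were not tested against other lists. Without ON-CR mouse 6, 6 of the 107 passed, without sham mouse 2, 10, without sham mouse 1, 13, and without ON-CR mouse 4, 15. The 6 genes that passed in every fit with a mouse left out were Cd44, Cd68, Gpnmb, Itgax, Lgals3 and Lpl. All of them but Cd44 are from the list of lipid-laden and giant cell macrophage genes.

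Among ligands, receptors and proximal signalling, 3 of 21 rose, 0 fell and 18 did not pass, with a median log2 fold change of 0.47. The 3 that rose encode a co-receptor and the adaptors on which osteoclast co-receptors depend. Trem2, a lipid-binding receptor of microglia and osteoclasts, went from 582 ± 133 to 1845 ± 402 (log2 fold change 1.66, adjusted p = 0.00353). Fcer1g, the FcRgamma adaptor through which OSCAR signals, went from 1068 ± 60.9 to 2784 ± 806 (1.34, adjusted p = 0.00880), and Tyrobp, the DAP12 adaptor of TREM2, from 689 ± 84.2 to 1675 ± 403 (1.26, adjusted p = 0.00636; SD, n = 3 each). All 3 lost the call without ON-CR mouse 6, at an adjusted p of 0.0518 for Trem2 and Tyrobp and 0.0936 for Fcer1g. Fcer1g also lost it without sham mouse 2 (0.0654) or 3 (0.0527), and Tyrobp without sham mouse 2 (0.0529).

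The receptors for the fusion cytokines themselves did not pass. Tnfrsf11a, which encodes RANK, was low, at 55.2, 33.6 and 51.7 in the sham nerves (mice 1 to 3) and at 94.7, 41.0 and 98.6 in the ON-CR nerves (mice 4 to 6). ON-CR mouse 5, with the lowest Dcstamp, also had the lowest RANK value of its group, and the groups overlapped (log2 fold change 0.66, adjusted p = 0.447 by limma). Csf1r, the M-CSF receptor and the highest gene of the list, was at 4155 ± 650 in sham and 5273 ± 1149 in ON-CR libraries (SD, n = 3 each; adjusted p = 0.402 by limma). The RANK ligand gene Tnfsf11 and the co-receptor gene Siglec15 were not analysed here.

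Among transcription factors and their brakes, 3 of 21 rose, 1 fell and 17 did not pass, with a median log2 fold change of 0.16, the same with Fosl1, which had no sham read, at its bound. Fos, the AP-1 subunit that osteoclast formation requires, was at 191, 120 and 247 in the sham nerves (mice 1 to 3) and at 774, 703 and 767 in the ON-CR nerves (mice 4 to 6). Its log2 fold change was 2.06 (adjusted p = 0.00279 by limma, 0.0502 without ON-CR mouse 6). Irf8, a macrophage lineage factor known to restrain osteoclast formation, rose from 384 ± 29.0 to 1153 ± 355 (SD, n = 3 each; log2 fold change 1.53, adjusted p = 0.00733 by limma). It lost the call without ON-CR mouse 6, at an adjusted p of 0.0902, and without sham mouse 2, at 0.0568. The gene that fell is Tfeb, given above. Spi1, which encodes the myeloid factor PU.1, was at 107 ± 43.9 and 91.2 ± 72.8 (SD, n = 3 each) and did not pass.

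Among partners in cell fusion, 2 of 20 rose, 1 fell and 17 did not pass, with a median log2 fold change of 0.29. Cd44, a hyaluronan receptor, went from 741 ± 132 to 2413 ± 354 (log2 fold change 1.71, adjusted p = 0.000957), and Cd9, a tetraspanin of fusing cells, from 5856 ± 994 to 10519 ± 1763 (0.84, adjusted p = 0.0257). Cdh1, which encodes E-cadherin, fell from 2067 ± 454 to 1173 ± 160 (-0.80, adjusted p = 0.0498; SD, n = 3 each). The call of Cd44 held without each mouse in turn. Cd9 kept it only without sham mouse 1 or ON-CR mouse 5 (adjusted p = 0.0619 to 0.180 without any other), and Cdh1 only without sham mouse 2 (0.0670 to 0.202 without any other). Cdh1 also lost it with a pseudocount of 0.5 (0.0524), upper-quartile (0.0586) or total scaling (0.0915), a mean value of at least 10 (0.0533) and quality weights (0.0659).

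In the machinery of acid secretion and matrix resorption, 0 of 30 measured genes rose, 1 fell and 29 did not pass, with a median log2 fold change of -0.07. The 1 that fell was Slc4a2, an anion exchanger, from 1628 ± 185 to 987 ± 203 (SD, n = 3 each; -0.74, adjusted p = 0.0459 by limma), which with a mouse left out passed only without ON-CR mouse 4, the adjusted p being 0.0554 to 0.230 otherwise. It also lost the call under total scaling (0.0768). Tcirg1, the a3 subunit of the osteoclast proton pump to which d2 belongs, was at 489 ± 103 and 548 ± 120 (SD, n = 3 each; log2 difference 0.16, 95% interval -0.28 to 0.60). No other measured subunit of the pump passed the test.

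Among genes of lipid-laden and giant cell macrophages, 9 of 15 measured genes rose, 0 fell and 6 did not pass, with a median log2 fold change of 0.83. Itgax, the CD11c integrin subunit, went from 29.3 ± 2.59 to 288 ± 119 (log2 fold change 3.16, adjusted p = 0.00168), and Lpl, lipoprotein lipase, from 210 ± 35.5 to 1506 ± 637 (2.76, adjusted p = 0.00128). Lgals3, galectin-3, went from 332 ± 40.0 to 1871 ± 161 (2.49, adjusted p = 0.000102; SD, n = 3 each).

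Gpnmb, a transmembrane glycoprotein of lysosome-rich macrophages and osteoclasts that MITF-family factors regulate, was at 2378, 2202 and 1514 in the sham nerves (mice 1 to 3). In the ON-CR nerves (mice 4 to 6) it was at 11600, 8670 and 9849 (log2 fold change 2.32, adjusted p = 0.000341 by limma). Unlike Dcstamp it was high in all 3 ON-CR mice alike, with mouse 4 the highest. The other 5 that rose were Mmp12, Cd68, Ctsd, Spp1 and Cd63. All 4 genes named with values held their call without each mouse in turn. Among the genes named with values, Csf1r, Cd9, Ctsl, Dcst1, Itgav and Slc4a2 share exon bases with another annotated gene, and the counting of such reads is not stated.

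**Figure D3:**
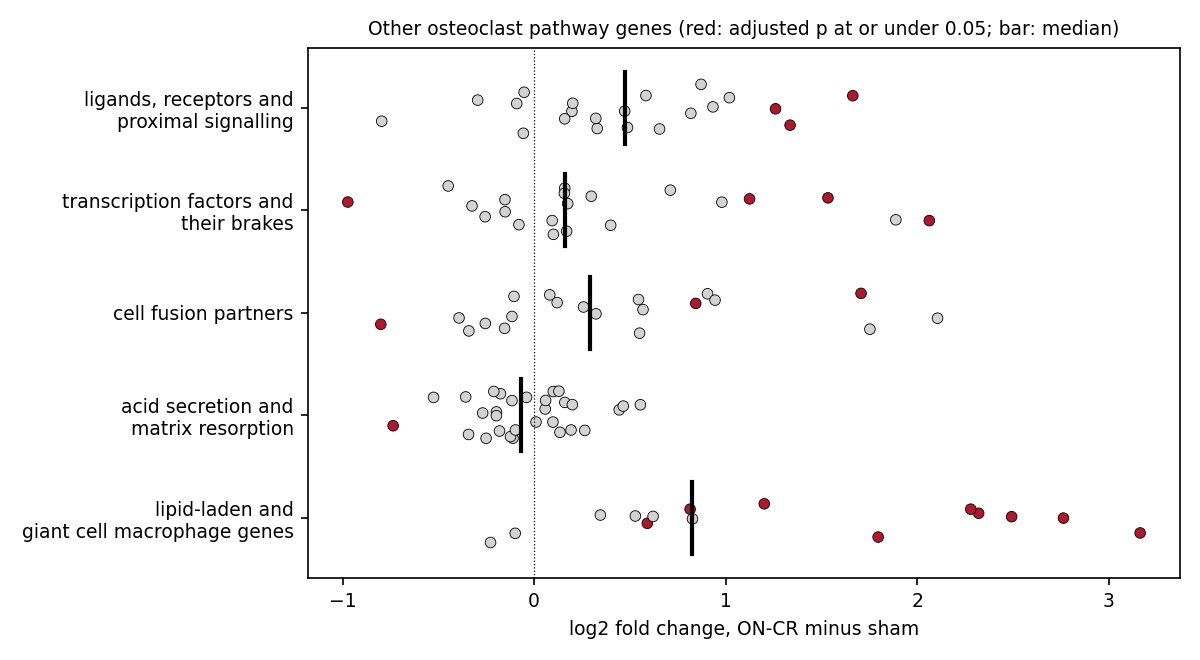
Log2 fold change of ON-CR over sham for the 107 other osteoclast pathway genes, 1 point a gene, in 5 rows by role; red points have an adjusted p at or under 0.05 by limma and the black bar is the median of a list. The points of acid secretion and matrix resorption centre on 0 (median -0.07) with 1 red point, while 9 of 15 lipid-laden and giant cell macrophage genes are red and to the right.

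The genes whose profile over the 6 mice was most like that of Dcstamp were sought among 19649 genes with a mean value of at least 10, by the root-mean-square difference of log2(value + 1) centred on the mean of each gene. The nearest were Ccl4 (0.863), Gm37401 (0.883), Cst7 (0.927), Igfbpl1 (0.985) and Ccl3 (1.10), and Atp6v0d2 came at rank 8 (1.27). Likeness of this kind is likeness in the same contrast over the same libraries, and it is given as a description. Ccl4 and Ccl3, macrophage inflammatory chemokines, were at 12.7, 11.5 and 19.7 and at 17.0, 5.31 and 11.3 in the sham nerves (mice 1 to 3). In the ON-CR nerves (mice 4 to 6), Ccl4 was at 396, 324 and 575 and Ccl3 at 295, 195 and 270. Both were thus high in every ON-CR mouse, with mouse 5 the lowest, as for Dcstamp, but over a narrower range.

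Cst7, which encodes cystatin F, an inhibitor of lysosomal cathepsins, was at 12.7, 12.4 and 25.4 after sham surgery and at 622, 385 and 618 after ON-CR. Igfbpl1, a secreted protein related to insulin-like growth factor binding proteins, had 0, 1 and 1 reads after sham surgery and 29, 18 and 37 after ON-CR, the same order of ON-CR mice as Dcstamp. Gm37401, a non-coding RNA, was at 9.93, 2.33 and 53.7 in the ON-CR nerves (mice 4 to 6) and near 0 in sham mice. Of these genes Gm37401 had the spread between ON-CR mice nearest to that of Dcstamp, with mouse 6 highest by far, and its values are not whole reads.

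**Figure D4:**
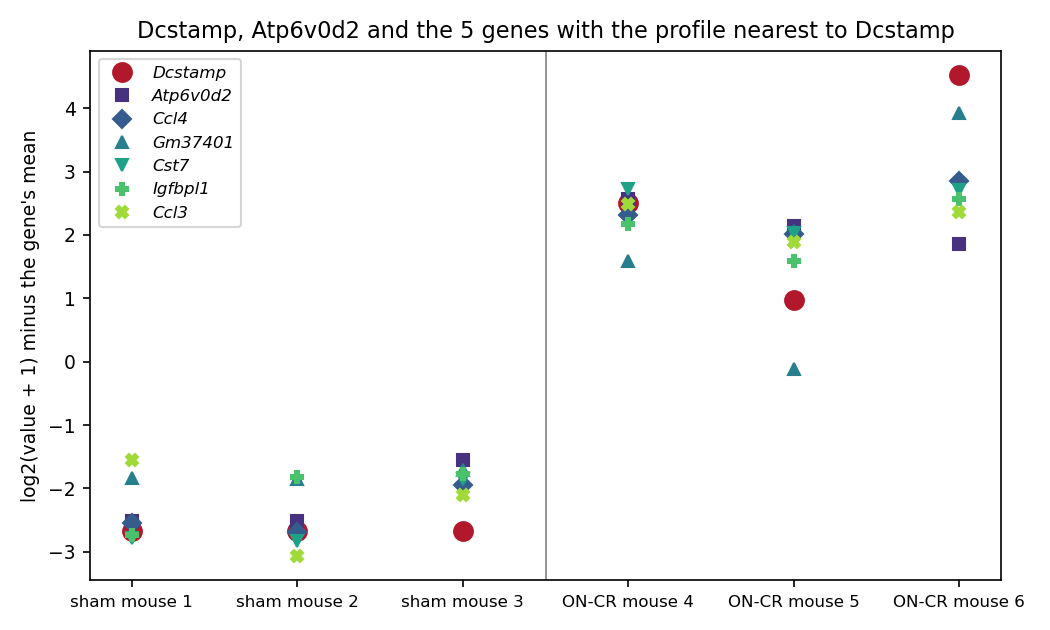
Profiles of Dcstamp, Atp6v0d2 and the 5 genes nearest to Dcstamp over the 6 libraries, as log2(normalized value + 1) minus the mean of the gene, with sham mice left and ON-CR mice right of the line. All 7 genes lie below 0 in sham mice; in ON-CR mice Dcstamp spans 0.98 to 4.53, while Atp6v0d2 stays between 1.86 and 2.57.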

How the data were processed

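RNA of optic nerves from 3 sham and 3 ON-CR mice was analysed, grouped by the sample labels, which name mice 1 to 3 and mice 4 to 6. Alignment and quantification were done by the authors in DRAGEN, followed by assignment to mm10 Ensembl gene models and median normalization of gene counts in Partek Flow 10.0. The deposited signal values are therefore counts divided by a factor per library, not per length and not whole numbers. Reads were estimated by dividing each library by its most frequent low value, the value of 1 read. Between 64.3% and 66.7% of nonzero values came out whole within 0.01, so no count model was run, and replicate libraries differed beyond sampling noise (chi-square per degree of freedom 16.5 to 47.2).

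The test was limma (version 3.58.1, run in R 4.3.3) on log2(value + 1), two-sided, with a mean-variance trend, no covariate and no filter, and p-values were adjusted over all 25755 genes by the Benjamini-Hochberg method. Each adjusted p and 95% interval of a log2 fold change is from this fit, and such fold changes understate the change of low genes. For single genes an exact permutation of 3 against 3 mice cannot give a p below 0.1. Intervals of read ratios are exact binomial. The fit was checked on simulated data. Positions, exon lengths and exon overlaps are from GENCODE M21 on GRCm38, which is mm10, and promoters from RefSeq on GRCm38.p6.

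The 9 genes, the pathway lists and the cell type markers were chosen with earlier results of these data known. Fibroblast and endothelial lists were added after the values had been seen. Genes named are the 9, their paralogs, up to 4 called genes with the largest change in each pathway list, partners of the 9, the highest and the called markers, and the 5 genes most like Dcstamp. Results for a few of these genes are left out. Alternatives were pseudocounts of 2 and 0.5, upper-quartile and total scaling, a mean value of at least 10, a robust fit, quality weights per mouse and leaving out each mouse.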

Additional observations from a re-analysis of the deposited data

How the results depend on the processing

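When single mice were left out, the number of genes called by limma among all 25755 ran from 67 without ON-CR mouse 6 to 854 without ON-CR mouse 5, and was 192, 123 and 258 without sham mice 1, 2 and 3. Among the 107 other pathway genes it ran from 6 without ON-CR mouse 6 to 23 without ON-CR mouse 5, with 13 and 10 without sham mice 1 and 2. The median log2 fold change of the 8 osteoclast-like genes ran from 0.12 without ON-CR mouse 6 to 0.56 without ON-CR mouse 4, and was 0.37 without sham mouse 2. Under the other alternatives the first count lay between 521 and 791 and the second between 19 and 23. Without ON-CR mouse 4 the 462 calls split into 137 higher and 325 lower. For the called pathway genes and some named partners and paralogs, 55 of 364 comparisons with the reported fit lost a call and 0 gained one. The 364 include Tnfrsf11a, Csf1r, Atp6v0d1, Tcirg1, Itgav, Tfe3 and Spi1, which had no call to lose, so the share lost among called genes is larger. Lost calls numbered 15 without ON-CR mouse 6 and 11, 8 and 7 without sham mice 2, 1 and 3. They numbered 6 and 2 without ON-CR mice 4 and 5. Among comparisons with a call in either fit, 0 turned their direction. Changes of sign without a call were not counted, such as that of Atp6v0d1, at -0.04 in the reported fit and 0.09 under total scaling. Leaving out a mouse leaves a group of 2, and the cause of these shifts was not tested. The low reads of Dcstamp, Ocstamp and Atp6v0d2 limit the precision of their ratios. No paired analysis was possible because the groups share no mouse number.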

Other observations

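Lists of other cells of the nerve gave the setting in which the osteoclast-like genes were measured. Of 10 oligodendrocyte genes, 7 fell after ON-CR by limma, 0 rose and 3 did not pass, with a median log2 fold change of -0.84 and Mbp, a myelin protein gene, the highest. Of 8 astrocyte genes, S100b fell (log2 fold change -0.75, adjusted p = 0.0185 by limma) and 7 did not pass, while their sum was 193243 to 231345 in sham and 263508 to 297572 in ON-CR libraries, with Gfap the highest. None of 10 endothelial genes passed, 0 of 10, with sums of 3822 to 4539 and 3631 to 4507 and Flt1 the highest.

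Genes of neuronal cell bodies, which an optic nerve should lack, summed to 995 to 2344 in sham libraries and to 912, 5969 and 1395 in ON-CR mice 4, 5 and 6, with 0 of 7 passing and Snap25 the highest. The library highest in these genes, mouse 5, was the one with the least Dcstamp of its group, and the part of this tissue in that value was not tested. Skeletal muscle genes summed to 200 to 508 in sham and 186 to 211 in ON-CR libraries, with 0 of 8 passing and Pvalb the highest.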
